A study of Mus musculus with 36 samples.

Results

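Mouse embryonic fibroblasts (MEFs) that carried a catalytically inactive Cas9 fused to the VPR transcriptional activator (Activator) were compared with MEFs that carried inactive Cas9 alone (Control), 3 h after doxycycline was removed from the medium. The comparison took 6 of the 36 libraries of the series, 3 per line, chosen by their labels, and used all 54842 gene rows and 1561 repeat family rows of the count table. Both lines expressed a guide RNA directed to the major satellite repeat, and both had been induced with 10 ng/ml doxycycline, for 24 h in the Control line and for 6 h in the Activator line, so that the length of induction and the effector cannot be told apart. Each line was a stable mixed culture made by PiggyBac transposition, not a clone, and no untargeted line was compared here. For removal, both lines were washed and given fresh medium without doxycycline, by the study's methods. Samples with the same replicate number were treated as pairs.

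Major satellite repeats are tandem arrays that form the pericentric heterochromatin of mouse chromosomes, next to the centromere, which lies at the start of each mouse chromosome in the assembly. They are normally packed with H3K9 methylation and HP1 proteins and are transcribed at low levels. VPR joins the activation domains VP64, p65 and Rta, which recruit the transcription machinery to wherever inactive Cas9 is placed. GSAT_MM is the annotated name of the major satellite family, and SYNREP_MM is a second family of satellite-type sequence.

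Normalised read counts are counts divided by a TMM-scaled library size and multiplied by the mean gene count per library. A gene was called when edgeR's quasi-likelihood test gave a Benjamini-Hochberg adjusted p below 0.05, the log2 fold change exceeded 1 in size and the mean over the 36 libraries exceeded 100. A repeat family was called at the same adjusted p and a log2 fold change above 0.5 in size. Between 31864525 and 52049760 counts per library fell on genes at 3 h. Activator replicate 1 stood apart from the other Activator libraries in a chi-square comparison of counts (250.1 and 234.5 per degree of freedom, against 34.8 between replicates 2 and 3). The non-coding gene Gm26917 took 1.68% to 6.71% of gene counts in the Control libraries. It took 3.20%, 14.3% and 14.6% in Activator replicates 1, 2 and 3, and its counts entered the chi-square comparison. Its part in that comparison and in the results was not tested.

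The targeted repeat was far higher in the Activator line. GSAT_MM had 1129, 957 and 1014 normalised counts in the 3 Control libraries and 175584, 463052 and 887653 in the 3 Activator libraries. Every Activator library lay above every Control library, while the Activator libraries themselves differed by 5.06-fold from the lowest to the highest. The log2 fold change was 8.71 ± 0.86 (SE; edgeR adjusted p = 7.95e-09), and an exact two-sided permutation test of 3 against 3 libraries gave p = 0.1, the smallest it can give. GSAT_MM made up 0.315%, 0.788% and 1.41% of all counts in the Activator libraries and at most 0.00214% in the Control libraries.

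SYNREP_MM had 94.6, 95.6 and 76.7 normalised counts in the Control libraries and 48013, 32141 and 47468 in the Activator libraries, and its groups did not overlap. Its log2 fold change was 8.90 ± 0.46 (SE; edgeR adjusted p = 7.52e-14). Before induction SYNREP_MM was already higher in the Activator line, by 2.90 ± 0.40 on the log2 scale (edgeR adjusted p = 0.000399), and it was the 1 repeat family called at that time (0.0671% of those tested). GSAT_MM differed before induction by 1.20 ± 0.63, which did not pass the test (edgeR adjusted p = 1). With the difference before induction subtracted, the log2 differences at 3 h were 7.51 for GSAT_MM and 6.00 for SYNREP_MM, both called.

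**Figure D1:**
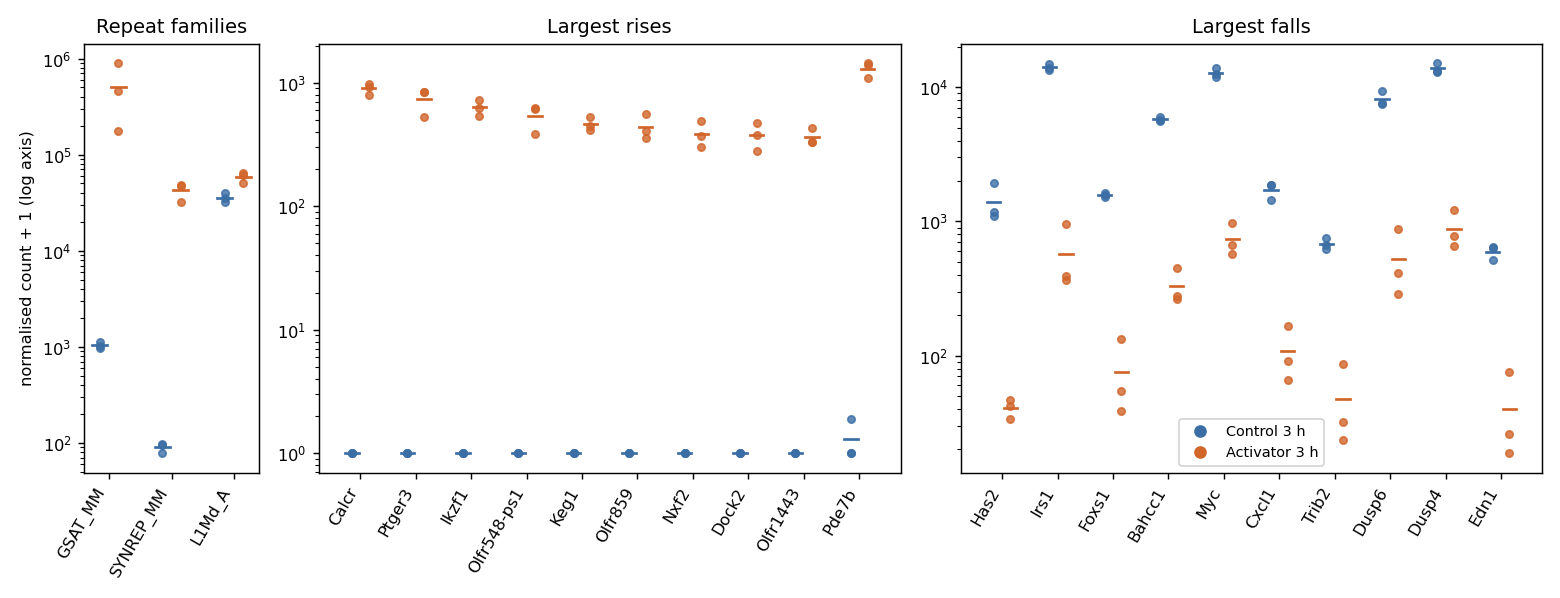
Normalised counts plus 1 (log axis) of 3 repeat families and of the 10 named coding genes with the largest rise and the largest fall, in the 3 Control and 3 Activator libraries at 3 h. Points are libraries and bars are group means. GSAT_MM and SYNREP_MM differ by 8.71 and 8.90 on the log2 scale, and no gene shown has overlapping groups.

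Of 1490 repeat families tested, 472 were higher in the Activator line (31.7%) and 222 were lower (14.9%), with a median log2 fold change of 0.13. Higher families made up 68% of the calls. That share was 78.9% with DESeq2 size factors, 57.5% with library size alone, 55.7% with repeat counts in the library size, 22.7% with scaling to the mitochondrially encoded mRNAs and 80.7% without Activator replicate 3. With DESeq2 size factors, library size alone and the mitochondrial scaling GSAT_MM stayed between 8.11 and 8.84 and SYNREP_MM between 8.28 and 9.04 on the log2 scale.

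Endogenous retrovirus families, remnants of retroviral insertions that heterochromatin normally silences, were the largest class tested and also the largest among the higher repeats. Of 662 LTR families, 336 were higher and 30 were lower, with a median log2 fold change of 0.52. With scaling to the mitochondrially encoded mRNAs 193 of all repeat families were higher and 656 lower, and LTR families were not counted apart. The ERVK group, which includes the intracisternal A particles, had 169 higher and 5 lower of 279. Among 25 IAP families, 22 were higher and 0 were lower by edgeR, with log2 fold changes from 0.24 to 3.94. IAPLTR4_I had 20, 12 and 25.9 normalised counts in the Control line and 276, 246 and 277 in the Activator line, a log2 fold change of 3.79 ± 0.26 (edgeR adjusted p = 4.22e-24).

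ERVB5_1-I_MM-int had 90.0, 109 and 98.4 normalised counts in the Control line and 1841, 1175 and 1283 in the Activator line, and MLT1I-int had 26.4, 17.3 and 24.9 against 669, 508 and 517. Neither family overlapped between the lines. Their log2 fold changes were 3.84 ± 0.39 and 4.63 ± 0.27 (edgeR adjusted p = 1.34e-08 and 5.42e-22). L1Md_A, a young LINE-1 family that encodes its own reverse transcriptase, had 32268, 39415 and 34985 against 64878, 61299 and 50984, a log2 fold change of 0.74 ± 0.13 (edgeR adjusted p = 4.24e-07). With scaling to the mitochondrially encoded mRNAs the L1Md_A difference was 0.15 and was not called. Of 56 tRNA families, 42 were higher and 4 were lower, beside 31.7% and 14.9% of all families tested.

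Repeats at lower levels in the Activator line belonged mostly to DNA transposons and simple repeats, with 61 of 197 and 80 of 281 families lower. Over all families tested 14.9% were lower. UCON12A had 177, 199 and 190 normalised counts in the Control line and 11.7, 33.0 and 14.4 in the Activator line, a log2 fold change of -3.28 ± 0.35 (edgeR adjusted p = 9.25e-10). The simple repeat (CATCC)n, Eulor9A, Tigger12c and U5 followed, at log2 fold changes of -2.26, -1.93, -1.62 and -1.62. The satellite MMSAT4 was also lower, from 10656, 10615 and 10763 to 3843, 4438 and 3727 normalised counts, a log2 fold change of -1.42 ± 0.13 (edgeR adjusted p = 3.72e-18). Of 7 satellite families, 3 were higher and 3 were lower. The third higher family, MurSAT1, was scarce, at 5.46, 2.66 and 1.04 normalised counts against 15, 27.7 and 25.5, and ZP3AR went from 5199, 5663 and 5092 to 3013, 3925 and 2758.

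Among genes, 966 were higher and 2698 were lower in the Activator line, which is 3.39% and 9.45% of the 28536 tested and 7.09% and 19.8% of the 13629 with a mean above 100. The balance depended on the limit on the mean: without it 7731 genes were higher and 5306 were lower. The groups did not overlap for 71.4% of all genes tested. The median log2 fold change over the genes tested was 0.16, and it was 0.29 with DESeq2 size factors, 0.05 with library size alone and -0.44 with scaling to the mitochondrially encoded mRNAs. Under that last scaling 563 genes were higher and 5241 lower. Hprt, a housekeeping enzyme of purine salvage, had 4269, 4223 and 4312 normalised counts against 5587, 4031 and 5547, a difference of 0.23 ± 0.12 that did not pass the test (edgeR adjusted p = 0.0889) and became -0.38 under the mitochondrial scaling.

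**Figure D2:**
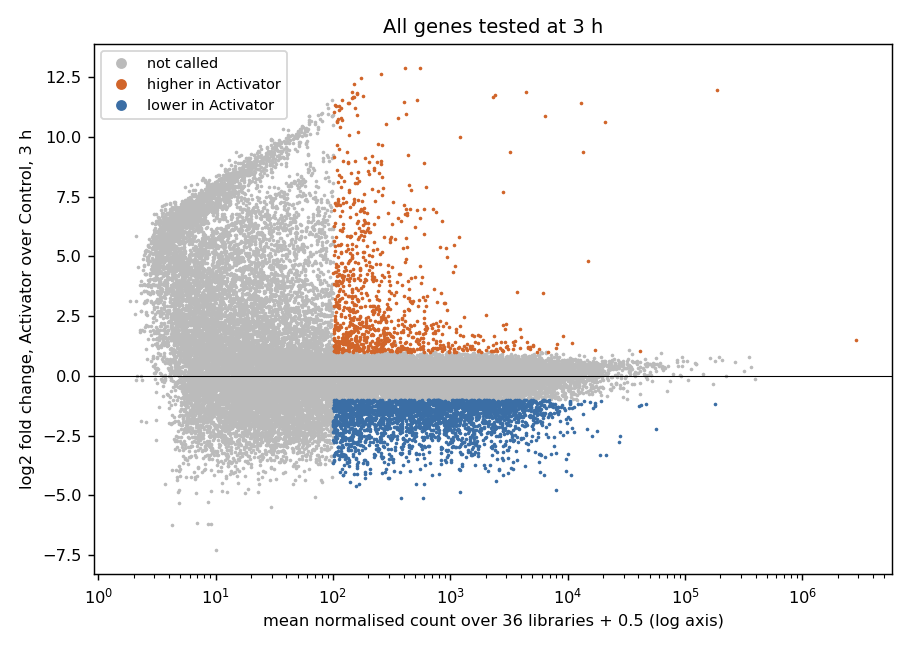
Log2 fold change of Activator over Control at 3 h against the mean normalised count over 36 libraries plus 0.5 (log axis), each point a gene tested. Genes called higher (966) and lower (2698) are coloured, and most of the largest positive changes lie at low means.

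More genes had reads in the Activator line. Between 35534 and 37575 genes had at least 1 count in the Activator libraries and between 27731 and 28580 in the Control libraries. At an equal depth of 31864525 gene counts, the expected numbers were 34033 to 35711 and 27362 to 27731. Of 23373 genes with 0 counts in all 3 Control libraries, 1077 had at least 10 counts in every Activator library. In the opposite direction, 1 of 13699 genes with 0 counts in the Activator line reached 10 counts in every Control library.

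The coding genes with the largest rises, leaving out predicted names, were mostly genes without reads in the Control line. A ranking by fitted fold change puts such genes first, so their place at the top is not a result in itself. They passed the limits on the mean only through Activator libraries. Calcr, the calcitonin receptor (chr6:3685680-3764714, GRCm38), had 0 counts in each Control library and 928, 978 and 792 normalised counts in the Activator libraries, at least 845-fold higher against a floor of 3 counts over the group. Ptger3, a prostaglandin E2 receptor, had 836, 529 and 843, at least 691-fold higher. Ikzf1, a lymphoid transcription factor, had 725, 626 and 542, at least 593-fold higher.

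The list went on with the olfactory receptor genes Olfr548-ps1, Olfr859 and Olfr1443, with Keg1, with Nxf2, an mRNA export factor of the germ line, and with Dock2, a Rac activator of blood cells. Their normalised counts in the Activator libraries ranged from 277 to 618, with 0 counts in every Control library, and they were at least 340-fold to 504-fold higher. Pde7b, a cyclic AMP phosphodiesterase, had 1 count over the Control libraries and 4245 over the Activator libraries. The non-coding genes Gm3942, Gm30551 and Gm45805 had 0 counts in the Control line and at least 296 counts in each Activator library.

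Olfactory receptors as a family went the same way. The file held 1407 olfactory receptor genes, whose summed normalised counts lay between 496 and 562 in the Control libraries and between 13567 and 16910 in the Activator libraries. Of these genes 87 to 99 had a count in a Control library and 420 to 519 in an Activator library. Germline and early-embryo genes summed to 702 to 729 in the Control line and 2429 to 2883 in the Activator line over 48 members. Neuronal genes summed to 6112 to 6467 and 7275 to 7600 over 50 members.

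Markers of other cell types were detected in greater number in the Activator line, while 20 fibroblast markers summed to 1169920 to 1371210 normalised counts in the Control line and 1144920 to 1403450 in the Activator line. Over 24 markers of epithelial, blood, endothelial, neural, germ and other cells, 11 to 14 had a count in a Control library and 19 to 20 in an Activator library, with 9 members at 0 throughout the Control line and 3 throughout the Activator line. Pecam1, an endothelial adhesion molecule, had 1.82, 12.0 and 10.4 normalised counts against 1327, 915 and 932, a log2 fold change of 7.14 ± 0.52 (edgeR adjusted p = 1.78e-11). Mbp, a myelin protein and the most abundant member, went the other way, from 1358, 1335 and 1141 to 239, 496 and 259, a log2 fold change of -2.01 ± 0.27 (edgeR adjusted p = 5.38e-07). Alb, the liver's serum albumin, had 0 counts in the Control line and 130, 103 and 179 normalised counts in the Activator line. Col1a1, the main fibrillar collagen of fibroblasts, had 472606, 485135 and 397509 against 347875, 441757 and 459585, with overlapping groups, and it carries much of the fibroblast sum. Of 16 fibroblast markers with a mean above 100, 5 were lower (Twist2, Twist1, Pdgfrb, Prrx1 and Pdgfra) and 1 was higher (Dcn, at 1.38 ± 0.38). Among all genes above that mean 19.8% were lower and 7.09% higher. In bulk RNA, fewer cells of a type and less RNA per cell cannot be told apart, and the part of any other cell type in these values was not tested.

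Genes higher in the Activator line lay more often near the centromeric end of their chromosome. Of 326 genes starting within 5 Mb of the chromosome start, 15.3% were higher, against 6.04% to 8.33% in the bins farther away. Leaving out the 9 genes at the start of chromosome 9, the share within 5 Mb was 12.9% of 317 genes. Other consecutive higher genes also lay in that bin: 4 at chr11:3125904-3193463, 5 at chr5:3571566-3637232 and 5 at chr8:3500457-3621316. The share without these local clusters was not computed. Lower genes were 14.7% within 5 Mb and 17.5% to 22.1% farther away. These shares are given without a test, since neighbouring genes are not independent.

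**Figure D3:**
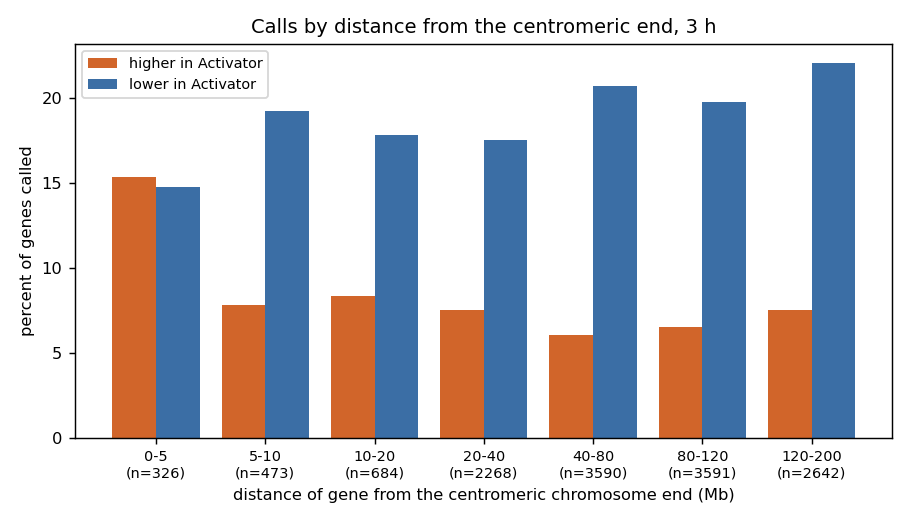
Percent of genes with a mean above 100 that were called higher or lower in the Activator line, by distance of the gene from the centromeric end of its chromosome (Mb), with the number of genes under each bin. The bin within 5 Mb has the highest share of higher genes, 15.3%.

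The 9 higher genes at chr9:3000282-3038316 have near-identical satellite-like sequence, so that reads may be shared among them and with GSAT_MM and their single values are uncertain. Gm26870 had 14.5, 21.2 and 25.9 normalised counts in the Control line and 10807, 30191 and 64089 in the Activator line, and Gm10715 had 0 in each Control library and 251, 803 and 1668 in the Activator libraries. In both genes the Activator libraries stood in the same order as in GSAT_MM. Gm10800, on chromosome 2, had 57.3, 66.4 and 79.8 normalised counts against 90564, 280907 and 547739, and made up 0.209%, 0.614% and 1.06% of gene counts in the Activator libraries and at most 0.000176% in the Control libraries.

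Genes called the same way also lay beside each other, in both directions. Of 966 higher genes, 33.3% had a neighbouring gene within 100 kb that was higher as well, against 10.8% of all genes with a mean above 100, and among 2695 lower genes 44.7% had a lower neighbour, against 26.5%. There were 17 runs of at least 4 consecutive higher genes with 83 genes, the 9 on chromosome 9 included. At chr8:105373274-105566047 the 7 genes Plekhg4, Kctd19, Lrrc36, Tppp3, Zdhhc1, Hsd11b2 and Atp6v0d1 were higher, by 1.30 to 9.19 on the log2 scale. Hsd11b2, which inactivates glucocorticoids, had 63.7, 69.0 and 61.1 normalised counts in the Control line and 1054, 1197 and 1083 in the Activator line. Atp6v0d1, a subunit of the vacuolar proton pump, was already abundant and went from 2963, 2892 and 2868 to 6394, 7593 and 7429. At chr19:12599974-12719902 the 5 genes Gm4952, Glyat, Olfr1442, Olfr1443 and Keg1 were higher by 7.80 to 11.9. The libraries were stranded, but without the strand setting of the counting in the sources used here, reads from overlapping or run-on transcripts cannot be assigned between such neighbours.

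Promoters of the higher genes held fewer CpG dinucleotides. RefSeq promoter windows of 300 bases (GRCm38.p6) were found for 8830 of 11329 coding genes with a mean above 100. For a gene with several windows the one with the lowest coordinate was used. The median number of CpGs per window was 10 in 555 higher genes, 22 in 1597 lower genes and 21 in all. The TATA motif TATAAA on either strand was found in 11.5% of higher, 5.20% of lower and 6.50% of all windows, and the GC box GGGCGG in 45.0%, 68.4% and 65.8%. Genes without reads in the Control line reached the mean limit only through Activator libraries, and the sets were not matched for Control level. Whether these differences follow from the Control level was not tested. The 250 bases upstream of the start are shown for the 2 named genes in each direction with the largest change and a single window in the table, as examples of windows with few and with many CpGs. Capitals mark CpGs.

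Ptger3, higher, chr3:157566626-157566875, plus strand: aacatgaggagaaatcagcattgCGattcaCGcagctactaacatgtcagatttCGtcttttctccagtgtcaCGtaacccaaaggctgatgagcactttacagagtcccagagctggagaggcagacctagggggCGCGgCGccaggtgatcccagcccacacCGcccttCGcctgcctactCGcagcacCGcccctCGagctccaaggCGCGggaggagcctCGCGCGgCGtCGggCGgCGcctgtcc

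Keg1, higher, chr19:12695540-12695789, plus strand: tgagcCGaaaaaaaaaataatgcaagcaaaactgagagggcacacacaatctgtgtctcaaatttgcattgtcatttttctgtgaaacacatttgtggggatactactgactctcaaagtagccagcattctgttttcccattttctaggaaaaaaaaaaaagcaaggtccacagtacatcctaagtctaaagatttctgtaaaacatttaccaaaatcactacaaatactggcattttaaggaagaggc

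Irs1, lower, chr1:82291440-82291689, minus strand: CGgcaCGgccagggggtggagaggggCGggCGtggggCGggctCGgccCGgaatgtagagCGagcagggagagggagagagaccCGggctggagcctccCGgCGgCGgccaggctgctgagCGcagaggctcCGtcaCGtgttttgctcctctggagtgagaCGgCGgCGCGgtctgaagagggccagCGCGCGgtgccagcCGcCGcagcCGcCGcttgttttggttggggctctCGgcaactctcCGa

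Bahcc1, lower, chr11:120232697-120232946, plus strand: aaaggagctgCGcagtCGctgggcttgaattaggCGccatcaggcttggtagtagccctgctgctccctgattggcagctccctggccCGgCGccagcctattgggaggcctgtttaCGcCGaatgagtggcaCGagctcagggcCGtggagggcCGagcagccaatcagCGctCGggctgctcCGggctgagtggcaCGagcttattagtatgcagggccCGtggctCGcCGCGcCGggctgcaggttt

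In the whole 300-base window Keg1 had 2 CpGs and Ptger3, also higher, had 27, against 28 in Irs1 and 23 in Bahcc1.

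The coding genes with the largest falls, leaving out predicted names, had differing roles. Has2, which makes hyaluronan, had 1106, 1173 and 1927 normalised counts in the Control line and 32.5, 45.5 and 41.0 in the Activator line, a log2 fold change of -5.12 ± 0.35 (edgeR adjusted p = 4.24e-12). Irs1, the insulin receptor substrate, had 14816, 13499 and 13886 against 363, 951 and 393, a log2 fold change of -4.79 ± 0.58 (edgeR adjusted p = 1.78e-07). Myc, the growth-promoting transcription factor, had 11889, 12448 and 13908 against 572, 966 and 670, a log2 fold change of -4.13 ± 0.26 (edgeR adjusted p = 1.42e-12). No Activator library reached a Control library in any of these genes.

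Foxs1, Bahcc1, Cxcl1, Trib2, Dusp6 and Dusp4 had log2 fold changes from -4.54 to -4.01, and Edn1 was the tenth coding gene named among the lower ones. Dusp6 and Dusp4 are phosphatases that switch off MAP kinases, Cxcl1 is a neutrophil chemokine and Edn1 is the vasoconstrictor endothelin. In Has2, Trib2 and Dusp6 the Control line itself stood higher at 3 h. Control means at the end of induction, 3 h and 6 h were 690, 1402 and 1018 for Has2. They were 244, 676 and 427 for Trib2 and 3382, 8120 and 4243 for Dusp6. The Control line also stood higher at 3 h in Myc, at 9128, 12748 and 9456. Control means at these times were 14615, 20205 and 12780 for Plk2 and 3480, 4483 and 2608 for Pdgfb, both named below. The Dusp6 log2 difference was -2.33 at the end of induction and -2.53 at 6 h. The part of the medium change was not tested. Of 65 snoRNA genes with a mean above 100, 37 were lower and 1 was higher, and of 56 sense-intronic transcripts 37 were lower and 4 higher. Among all genes above that mean 19.8% were lower and 7.09% higher. The non-coding Gm28119, Gm26652 and Gm42679 had log2 fold changes of -5.10, -4.63 and -4.54.

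Transcription factors of mesenchyme and body patterning formed the list with the most lower genes. Of its 44 members with a mean above 100, 36 were lower and 0 were higher by edgeR at the fold limit. Among all genes above that mean 19.8% were lower and 7.09% higher. The median log2 fold change of the list's 55 tested members was -1.44, against 0.16 over all genes tested. At the adjusted p alone 42 of the 55 were lower and 10 higher, beside 8948 and 11296 of all 28536 genes tested. Osr1, a mesenchymal factor, had 1366, 1255 and 1612 normalised counts against 85.9, 186 and 87.5, a log2 fold change of -3.62 ± 0.40 (edgeR adjusted p = 2.83e-08). Twist2, another mesenchymal factor, had a log2 fold change of -2.87 ± 0.23. Over the alternatives the list's median lay between -2.04 and -1.31. Hox genes had 9 lower of 11, with Hoxa3 at -2.21. At the adjusted p alone 16 of 28 tested Hox genes were lower and 7 higher. Of 39 Hox genes, 21 to 24 had a count in a Control library and 32 to 33 in an Activator library.

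Signalling lists are read against 19.8% lower and 7.09% higher among all genes with a mean above 100. TGF-beta and BMP genes had 16 lower and 1 higher of 29, with the ligand Bmp4 at -3.30 ± 0.46 and the receptor Bmpr2 at -0.48 ± 0.13. Growth factors and their receptors had 14 lower and 2 higher of 29, with the ligand Pdgfb at -3.99 ± 0.42 and the receptor Ntrk3 at 1.57 ± 0.21. Wnt genes had 9 lower and 3 higher of 30. Notch and Hedgehog genes had 10 lower and 1 higher of 16, with the ligand Jag1 at -2.90 ± 0.22 and the receptor Notch3 at 3.93 ± 0.38. Among NF-kappaB cytokines 11 were lower and 1 was higher of 17: Cxcl12, a stromal chemokine, went from 78977, 79366 and 78741 to 13911, 20859 and 16821 normalised counts, while Il6 went from 50, 47.8 and 61.1 to 320, 257 and 274.

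Immediate early genes, which cells switch on within minutes of a stimulus, were split. Of 31 members with a mean above 100, 18 were lower and 4 were higher, beside 19.8% and 7.09% of all genes above that mean. The list's median was -1.01 at 3 h, -0.75 at the end of induction and -0.08 at 6 h. Egr1 had 5183, 5744 and 6382 normalised counts against 17999, 17884 and 19920, a log2 fold change of 1.69 ± 0.20 (edgeR adjusted p = 4.83e-08), and Arc, a neuronal immediate early gene, was higher by 4.45 ± 0.35. Fos and Nr4a2 were the other higher members, and Myc, Dusp6 and Dusp4 were among the lower members.

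Cell survival and stress lists are read against the same shares, and calls need the limits on fold and mean. Of 26 integrated stress response genes 5 were lower and 0 higher by edgeR, and of 22 heat shock chaperones 1 was lower and 0 higher. At the adjusted p alone 9 of 24 tested chaperones were higher and 4 lower, beside 11296 and 8948 of all 28536 genes tested. Of 27 tested stress response genes 4 were higher and 15 lower by that measure. Apoptosis regulators had 11 lower and 0 higher of 28 by edgeR, with the anti-apoptotic Bcl2l1 at -3.54 ± 0.34 and Mcl1 at -1.70 ± 0.19. Of 27 p53 targets 10 were lower and 0 were higher by edgeR, led by Plk2 at -3.99 ± 0.25. At the adjusted p alone 7 of 31 tested p53 targets were higher and 17 lower. By that measure 6 of 31 tested apoptosis regulators were higher and 17 lower. Circadian clock genes had 9 lower and 1 higher of 15, with the repressor Nfil3 at -3.28 ± 0.30. Imprinted genes had 9 lower and 1 higher of 19, and YAP and SRF targets 7 and 1 of 22. At the adjusted p alone 15 of 32 tested imprinted genes were higher and 11 lower, with a median log2 fold change of 0.24. Heterochromatin genes had 7 lower and 0 higher of 30 by edgeR, close to the 19.8% lower among all genes above that mean, with Hmga2 at -3.29 ± 0.32.

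The 7 lower heterochromatin genes were Hmga2, a chromatin architecture protein, the DNA methyltransferase Dnmt3b, the H4K20 methyltransferase Kmt5c, the methyl-DNA binding proteins Zbtb33 and Mbd2, and the H3K9 methyltransferases Setdb1 and Setdb2. Dnmt3b had 446, 434 and 430 normalised counts in the Control line and 54.2, 84.7 and 43.2 in the Activator line, a log2 fold change of -2.87 ± 0.22 (edgeR adjusted p = 7.76e-12). Setdb1, which silences endogenous retroviruses, had 4218, 4110 and 4173 against 1418, 1641 and 1206, a log2 fold change of -1.56 ± 0.15 (edgeR adjusted p = 2.65e-10). Neither gene overlapped between the lines. Cbx5, which encodes HP1 alpha and had the highest mean of the list, was at -0.46 ± 0.11 and did not reach the fold limit. At the adjusted p alone 18 of the list's 30 tested members were lower and 3 higher, beside 8948 and 11296 of all 28536 genes tested. Any part of these genes in the repeat differences was not tested.

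Of 44 RNA polymerase II elongation and Mediator genes, 5 were lower and 1 was higher, against 19.8% and 7.09% of all genes with a mean above 100, with a median log2 fold change of 0.10. The Mediator subunit Med22 had 3520, 3349 and 3552 normalised counts against 652, 680 and 696, a log2 fold change of -2.36 ± 0.12 (edgeR adjusted p = 5.60e-15), and the subunit Med27 had 817, 758 and 813 against 1745, 1466 and 1594, a log2 fold change of 1.00 ± 0.12 (edgeR adjusted p = 3.99e-08). The bromodomain gene Brd3 was the 1 lower member of 13 histone acetyltransferase and bromodomain genes, at -1.10 ± 0.079, and Hdac7 the 1 lower of 13 histone deacetylases, at -2.44 ± 0.27.

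**Figure D4:**
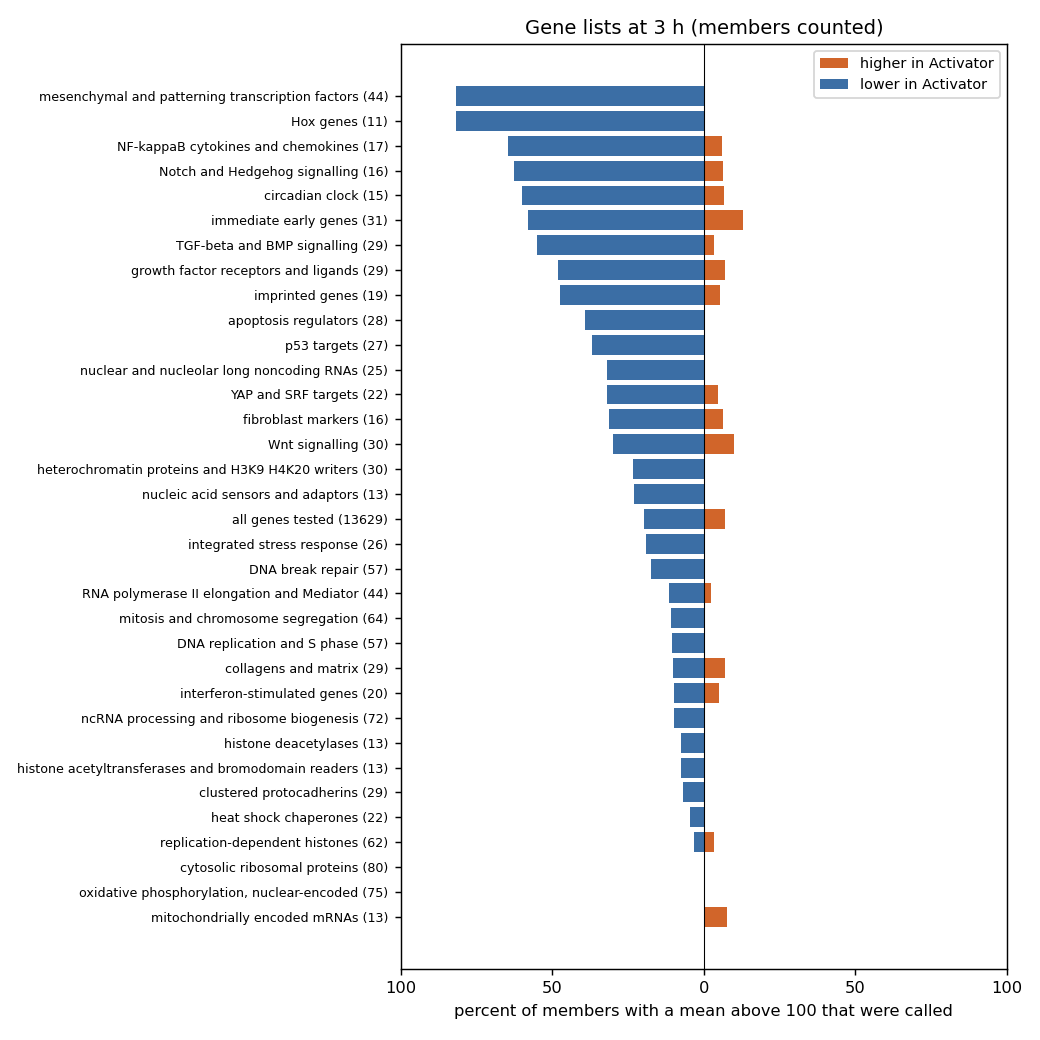
Percent of the members of each list with a mean above 100 (their number in parentheses) called higher or lower in the Activator line at 3 h, with all genes tested among the rows. Mesenchymal and patterning transcription factors have 36 of 44 members lower, and nuclear-encoded oxidative phosphorylation and ribosomal protein genes have none called.

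Of 75 nuclear-encoded oxidative phosphorylation genes and 80 cytosolic ribosomal protein genes, 0 were called by edgeR at the fold limit. At the adjusted p alone 60 of 75 and 65 of 81 tested members were higher. Their medians were 0.41 and 0.45, and -0.19 and -0.15 with scaling to the mitochondrially encoded mRNAs, so that their direction depends on the scaling. Mitochondrially encoded mRNAs themselves had a median of 0.60. Mitosis genes had 7 lower and 0 higher of 64 by edgeR, and interferon-stimulated genes had 2 lower and 1 higher of 20, with Irf1 at -2.34 ± 0.31 and Irf7 at 1.15 ± 0.28, beside 19.8% lower among all genes with a mean above 100. At the adjusted p alone 27 mitosis genes were higher and 17 lower, and 13 interferon-stimulated genes were higher and 3 lower, with medians of 0.14 and 0.55.

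Differences between the lines were also measured at the end of induction. At that time 792 genes were higher and 1630 were lower (2.78% and 5.71% of those tested), and 61 genes were called before induction (0.214%). With the difference before induction subtracted, 3470 genes were called at 3 h (12.2%), 808 upwards and 2662 downwards. Usp29, a ubiquitin protease of an imprinted cluster, differed before induction by -2.51 ± 0.22 and at 3 h by -4.03 ± 0.26, and Stag3, a meiotic cohesin subunit, by 2.42 ± 0.41 and 3.81 ± 0.39. The same Control line was compared at each time. A test of whether the difference changed from the end of induction to 3 h called 45 genes (0.158%), 19 upwards and 26 downwards. That count was 10 without Control replicate 1, 8 without Control replicate 3, 13 without Activator replicate 1 and 10 without Activator replicate 3. It was 9 without the replicate block and 120 with DESeq2. Of 1490 repeat families 0 were called by edgeR or DESeq2 (0%), and 127 and 136 families had an unadjusted p below 0.05.

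Hydin, a component of motile cilia, had mean normalised counts of 52.7 in the Activator line at the end of induction and 373 at 3 h, against 6.09 and 2.02 in the Control line. Its difference between the lines grew by 4.58 ± 0.90 on the log2 scale (edgeR adjusted p = 0.022). Rbm20, a splicing regulator of heart muscle, grew by 2.62 ± 0.53 and Rph3al, an exocytosis factor, by 2.46 ± 0.41 (edgeR adjusted p = 0.022 and 0.00443).

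Olr1, a receptor for oxidised lipoprotein, moved in the Control line: its mean normalised count was 65.1 at the end of induction and 257 at 3 h there, and 56.5 and 39.3 in the Activator line. The change in its difference was -2.51 ± 0.59 (edgeR adjusted p = 0.0442). Hmga2 and Arsj changed by -1.92 ± 0.41 and -1.88 ± 0.44 (edgeR adjusted p = 0.0338 and 0.0421). Within lines, 173 genes (0.606%) changed in the Activator line from the end of induction to 3 h, 113 without Activator replicate 1, and 10 genes (0.035%) in the Control line, 6 without Control replicate 1 and 6 without Control replicate 3.

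From 3 h to 6 h the difference changed for 6 genes (0.021%): Ier3, Hmox1, Errfi1, P2rx7 and Lif upwards and Ccdc18 downwards. The count was 3 without Control replicate 1, 0 without Control replicate 3, 1 without Activator replicate 1 and 2 without Activator replicate 3, and 25 with DESeq2. Lif, a cytokine of the IL-6 family, changed by 1.89 ± 0.35, and P2rx7, an ATP-gated channel, by 1.42 ± 0.26 (edgeR adjusted p = 0.0243 and 0.0208). Their log2 fold changes at 3 h were -2.98 and 2.19.

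**Figure D5:**
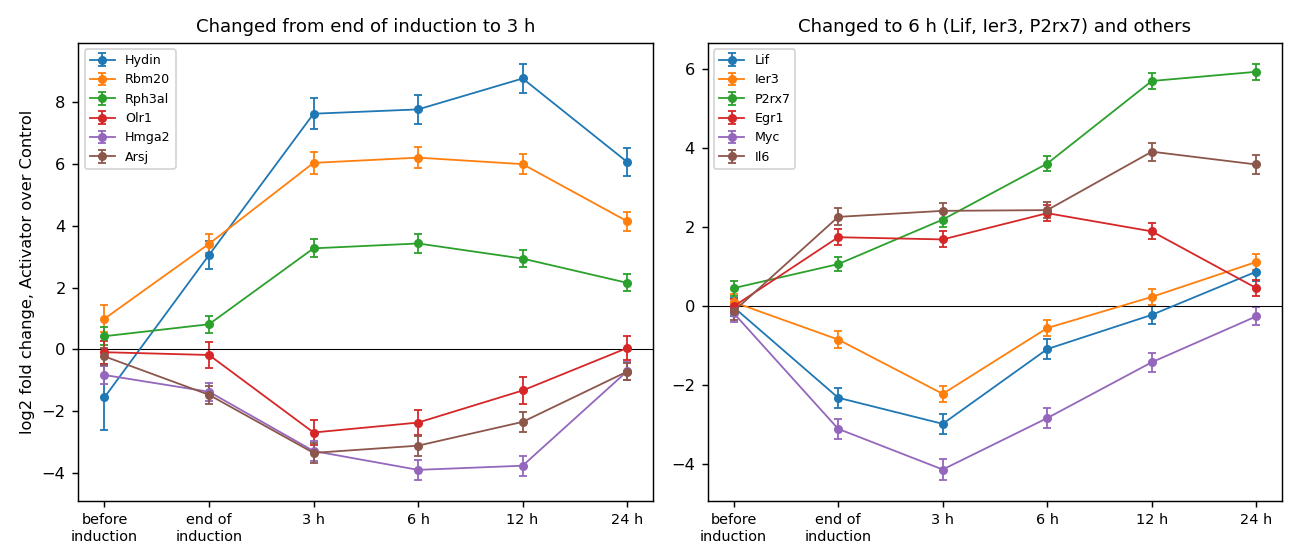
Log2 fold change of Activator over Control (± SE) from before induction to 24 h after removal, for 6 genes whose difference changed up to 3 h (left) and, on the right, for Lif, Ier3 and P2rx7, which changed from 3 h to 6 h, beside Egr1, Myc and Il6. Hydin stands at 7.64 at 3 h and Olr1 at -2.69.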

How the data were processed

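Total RNA of 36 libraries (2 lines, 6 times, 3 replicates) was sequenced by the authors, who trimmed reads with cutadapt, aligned them with STAR to GRCm38 and counted genes and repeats with TEtranscripts. The deposited values are raw counts. Libraries were stranded, but the counting mode, strand setting and annotation release are not given in the sources used here, so reads shared by near-identical copies or overlapping genes are uncertain. An unnamed row with at most 0.00452% of counts was left out, and 54495 of 54842 gene IDs were matched to GENCODE M21.

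Counts were tested with edgeR 4.0.16 (robust quasi-likelihood, R 4.3.3) on all 36 libraries, with a term per group and a replicate block, TMM scaling from genes and filterByExpr, and p-values were adjusted by Benjamini-Hochberg over all genes or all repeat families. Fold changes are given with their SE. Same-numbered samples at 3 h deviated together (correlations 0.466, 0.187 and 0.424), so the block was kept. The study's methods call the replicates biological and independent. Scripts were tested on simulated data. DESeq2 1.42.0, other scalings, no filter, no block, 6 libraries alone and leaving out each library were alternatives. Floors and depth cover counting error only.

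Named genes were the targeted and reference features, the 5 repeat families, 10 coding genes (predicted Gm and Rik names left out) and 3 non-coding genes with the largest called change each way (mean of at least 100 at 3 h, same direction in all pairs), the extremes and the most abundant gene of each list, and the 3 largest interaction changes each way. The genes and lists were chosen with earlier results of these data known. Alb, Gm26870, Gm10715, Gm10800, MurSAT1, MMSAT4, ZP3AR, Fos, Nr4a2, Hmox1, Errfi1, Ccdc18, the lower heterochromatin and fibroblast genes other than Hmga2 and Twist2, and the genes of runs were named after their values were seen. Not every gene that the rule names is reported here.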

Additional observations from a re-analysis of the deposited data

Results flagged for a closer look

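The difference between the lines at 3 h was compared with that at the end of induction by an interaction test in edgeR. With the limits on fold and mean as well, 8 named genes were called, Ier3 and P2rx7 among them. Sgo2a passed the test (edgeR adjusted p = 0.0373) with a change of -0.65, short of the fold limit. The change in log2 difference was 4.58 for Hydin, 2.62 for Rbm20, 2.46 for Rph3al, -2.51 for Olr1, -1.92 for Hmga2 and -1.88 for Arsj. From 3 h to 6 h the same test passed for Lif at 1.89, Ier3 at 1.67 and P2rx7 at 1.42. From the end of induction to 3 h Ier3 had changed by -1.37 and P2rx7 by 1.13. The mean normalised count of Ier3 in the Control line was 725 at the end of induction, 1852 at 3 h and 937 at 6 h, against 402, 400 and 652 in the Activator line.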

How the results depend on the processing

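Of 122 named genes and repeat families, 92 to 122 kept their direction and their side of the threshold under each alternative, fewest with scaling to the mitochondrially encoded mRNAs. Under that scaling 5804 genes were called in place of 3664, 5812 in place of 3470 with the difference before induction subtracted, and the changes from the end of induction to 3 h, from 3 h to 6 h and within the Activator line came to 3, 0 and 66. It also lowered L1Md_A to 0.15 and turned Hprt to -0.38, Brd2 to -0.49, Hsp90ab1 to -0.30, Rrm1 to -0.59, Npm1 to -0.28, Atp5b to -0.062, Actb to -0.23, Ctnnb1 to -0.44, Hist1h4d to -0.56 and Rpsa to -0.0011. Without a limit on the mean 13037 genes were called, with a log2 limit of 0.5 6887 genes, and with a log2 limit of 1 343 repeat families in place of 694. With DESeq2 the change from the end of induction to 3 h was called for 120 genes, that from 3 h to 6 h for 25 and that within the Control line for 21. With library size without TMM these were 15, 1 and 6, Brd2 was -0.011, Rrm1 -0.094 and Hist1h4d -0.076. Without the replicate block they were 9, 1 and 6, with 79 genes within the Activator line, and the block changed no other count by over 1.5 times. Without the filter on low counts 2 genes changed from 3 h to 6 h. With DESeq2 size factors Col1a1 was 0.016, Samhd1 0.062 and Malat1 0.13, and with the 6 libraries alone, which give no test of a change over time, Samhd1 was 0.011 and Malat1 0.081. With the difference before induction subtracted Samhd1 was 0.27. Leaving out 1 library gave 3576 to 3913 genes, 646 to 700 repeat families, 8 to 55 and 0 to 4 genes for the 2 changes between lines, 113 to 253 within the Activator line and 6 to 10 within the Control line. It moved Samhd1 between -0.11 and 0.028, Rrm1 between -0.030 and 0.12, Hist1h4d between -0.066 and 0.19 and Malat1 between -0.053 and 0.075. The cause of these shifts was not tested. Genes with few counts in the Control line have no measurable fold, and 3 libraries per line cannot reach a permutation p below 0.1.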
